A study of Mus musculus with 12 samples.

Results

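Imprinted genes, which are transcribed mainly from the copy inherited from the mother or mainly from the copy inherited from the father, were examined in mouse embryonic fibroblasts with and without a knockout of MLL1. The set was a list of 37 gene names, matched to the gene symbols in the platform annotation of the arrays. Of these, 31 had a probe set of their own, each a single one, among 19938 genes measured in the series. Mirg, Gnas, Ube3a and Snrpn were only in probe sets annotated to several genes, and H19 and Kcnq1ot1 were not analysed here. Of the 31 genes, 24 had a mean of log2(intensity + 16) over the 12 arrays at or above 7.58, the 30th percentile of all genes, which corresponds to an intensity of 174.8. Mest, Nap1l5, Zim1, Rian, Zdbf2, Rasgrf1 and Asb4 had a mean below it on this log2 scale and were kept. For Asb4 every wild-type array was above that intensity and every knockout array below it.

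The study measured total RNA on 12 Affymetrix expression arrays from mouse embryonic fibroblasts (MEF), connective tissue cells grown from embryos. The 4 groups, of 3 arrays each, were wild-type cells 18 h after a serum shock (CT18), wild-type cells 30 h after it (CT30), MLL1 KO cells at 18 h and MLL1 KO cells at 30 h. All cells had been grown in DMEM with 5% FBS and 5% NCS and had received 50% horse serum for 2 h, a pulse that sets the clocks of cells in culture to a common phase. The design asks what the loss of MLL1 changes in expression at 2 points of the circadian cycle. The labels do not say how the knockout was made, from how many embryos or cell lines each genotype came, at which passage the cells were used, or whether replicates were separate cultures. A difference between genotypes therefore cannot be told apart from a difference between cell lines, and the p-values rest on a spread among arrays that may be technical.

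Genomic imprinting rests on DNA methylation set differently in egg and sperm at imprinting control regions, which then decides, often across a whole cluster of neighbouring genes, which parental copy is read. Many imprinted genes act on growth before birth, with paternally expressed genes such as Igf2 often promoting it and maternally expressed genes such as Igf2r, Cdkn1c and Grb10 often restraining it, and a subset is active in brain or placenta. MLL1, encoded by Kmt2a, methylates histone H3 at active promoters. Expression arrays sum the RNA of both parental copies, so nothing below says which copy was read. The expressed copy given for each gene is general knowledge of the mouse, not a measurement here.

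Promoters of 6 genes around which the results turn are printed here because they show how different the starts of imprinted genes can be. They include genes of the same cluster with different calls. They are RefSeq windows of 300 bases, 250 before and 50 after the annotated start, on build GRCm38.p6, written 5′ to 3′ on the strand of the gene, with every CG dinucleotide, the target of DNA methylation, in capitals. Asb4 lies at chr6:5383136-5383435 on the plus strand, Ppp1r9a at chr6:4903061-4903360 on the plus strand, Ndn at chr7:62348027-62348326 on the plus strand, Magel2 at chr7:62376729-62377028 on the plus strand, Peg3 at chr7:6730370-6730669 on the minus strand, and Igf2r at chr17:12769657-12769956 on the minus strand.
Asb4: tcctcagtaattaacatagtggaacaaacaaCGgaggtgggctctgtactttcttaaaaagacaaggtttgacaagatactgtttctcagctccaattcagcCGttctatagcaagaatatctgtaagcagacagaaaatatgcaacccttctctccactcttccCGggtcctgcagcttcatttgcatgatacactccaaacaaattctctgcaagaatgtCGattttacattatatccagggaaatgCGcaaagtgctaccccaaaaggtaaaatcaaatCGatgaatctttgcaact
Ppp1r9a: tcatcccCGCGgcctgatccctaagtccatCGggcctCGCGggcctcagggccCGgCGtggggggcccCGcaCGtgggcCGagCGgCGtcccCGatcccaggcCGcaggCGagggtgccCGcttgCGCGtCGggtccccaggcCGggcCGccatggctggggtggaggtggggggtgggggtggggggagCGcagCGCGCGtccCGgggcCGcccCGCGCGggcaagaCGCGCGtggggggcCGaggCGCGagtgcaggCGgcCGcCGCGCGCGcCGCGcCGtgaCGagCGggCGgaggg
Ndn: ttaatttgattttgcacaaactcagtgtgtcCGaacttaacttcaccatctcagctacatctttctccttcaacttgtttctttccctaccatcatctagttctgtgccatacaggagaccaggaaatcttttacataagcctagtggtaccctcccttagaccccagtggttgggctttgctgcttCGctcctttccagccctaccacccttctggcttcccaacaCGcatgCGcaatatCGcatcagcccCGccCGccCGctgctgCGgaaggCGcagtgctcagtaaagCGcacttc
Magel2: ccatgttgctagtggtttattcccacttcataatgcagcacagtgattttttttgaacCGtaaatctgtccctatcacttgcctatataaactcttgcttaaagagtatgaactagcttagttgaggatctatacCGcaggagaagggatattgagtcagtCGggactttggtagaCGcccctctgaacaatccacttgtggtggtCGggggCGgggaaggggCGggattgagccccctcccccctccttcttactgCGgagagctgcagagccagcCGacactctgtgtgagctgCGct
Peg3: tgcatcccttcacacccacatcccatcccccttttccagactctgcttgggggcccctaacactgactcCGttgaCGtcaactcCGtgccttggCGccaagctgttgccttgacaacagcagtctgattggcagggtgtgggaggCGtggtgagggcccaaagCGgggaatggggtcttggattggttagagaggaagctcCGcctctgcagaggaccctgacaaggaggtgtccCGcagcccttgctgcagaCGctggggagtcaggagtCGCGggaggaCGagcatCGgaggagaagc
Igf2r: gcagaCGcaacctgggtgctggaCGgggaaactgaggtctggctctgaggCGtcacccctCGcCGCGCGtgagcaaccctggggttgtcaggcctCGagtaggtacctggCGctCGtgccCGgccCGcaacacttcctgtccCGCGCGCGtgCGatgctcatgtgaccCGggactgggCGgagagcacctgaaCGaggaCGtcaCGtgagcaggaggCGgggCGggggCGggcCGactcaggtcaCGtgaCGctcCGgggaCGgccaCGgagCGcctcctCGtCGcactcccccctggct

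The window of Asb4 held 6 CG dinucleotides and that of Ppp1r9a, in the same cluster, held 48. Ndn had 11 and its neighbour Magel2 had 10, Peg3 had 13 and Igf2r had 34. The Peg3 window shares 263 bases with that of Usp29, which starts in the opposite direction. For Asb4 and Ppp1r9a the table lists another start each, with 8 and 10 CG dinucleotides. Promoter entries of 27 of the 31 measured genes were used, and none was used for Cdkn1c, Impact, Peg10 and Sgce. Windows on chromosome 18, where Impact lies, were left out for the set but kept for the array genes. Taking the window richest in CG for each gene, the median was 17 over the 27 genes and 16 over the 15614 genes of the arrays with an entry. Of these 27, the 8 that were lower in knockout had a median of 20.5, the 5 that were higher had 17 and the 14 that did not pass had 17. Impact, Peg10 and Sgce, which were also lower, are not among the 8. The letters TGCCGC, the core of the site that the imprint-protecting factor ZFP57 binds, were searched on both strands and occurred in the windows of 7 of the 27 genes (25.9%), against 16.0% of the array genes. The letters CACGTG, the E-box that CLOCK and BMAL1 bind, which read the same on both strands, occurred in 3 of the 27 (Igf2r, Ppp1r9a and Plagl1; 11.1%), against 8.56% of the array genes. Such a match is a description of the sequence and not a binding site.

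Some facts of the whole series touch every result below. Array medians ran from 273.3 to 311.8, and arrays of a group correlated at 0.989 to 0.997. The first principal component held 84.6% of the variance and separated the genotypes, and the second held 6.86%. On the second component, knockout 18 h replicate 1 lay at -9.69, away from replicates 2 and 3 at -26.2 and -26.8. Results that changed without that array are given with and without it. Kmt2a, the targeted gene, read 2100 to 2824 in wild type and 1960 to 2174 in knockout at 18 h, with overlap, and 2069 to 2155 against 1338 to 1584 at 30 h, without overlap. The position of its probes relative to the disrupted part of the gene is unknown here, so this does not check the labels.

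Markers of the fibroblast and of other cell types also moved with genotype. Counts of markers here refer to the average over both times. In it 50.4% of all genes passed the test, 23.1% higher and 27.2% lower in knockout. The fibroblast genes Col1a1, Vim and Fn1 read at least 6095, 14728 and 13855 on every array, while Pdgfra read 3203 to 4040 in wild type and 354 to 445 in knockout, Lum read 36 to 55 on all arrays, and of 12 fibroblast markers 5 were higher, 6 lower and 1 did not pass. Of 9 adipocyte markers 8 were lower in knockout, among them Pparg, Fabp4, Adipoq and Cd36, and their summed intensity was 19407 to 21125 in wild type and 1543 to 2177 in knockout. Of 10 neural markers, Map2, Nes and Tubb3 were higher in knockout and the other 7, Sox2 and Gfap included, did not pass. Their summed intensity was 1729 to 2059 in wild type and 6864 to 7790 in knockout. Of the 24 measured markers of trophoblast and placenta, macrophage and blood, endothelium and skeletal muscle, Eomes, a trophoblast gene (1.61, adjusted p = 2.63e-12), Kdr, an endothelial receptor gene (0.97), Actc1, a muscle actin gene (0.55), and Cd14, a macrophage gene (0.39), were called, all higher in knockout, while the placental gene Tpbpa and the blood cell gene Ptprc did not pass. The summed intensity of the 7 trophoblast and placenta markers was 1062 to 1351 in wild type and 1499 to 1792 in knockout, without overlap. Only Eomes among them was called, at 119 to 180 in wild type and 386 to 626 in knockout, while Cdx2, Elf5, Tpbpa, Hand1, Krt8 and Krt18 did not pass. The sum of the endothelial markers was 531 to 640 and 606 to 824. The sums of macrophage and blood markers (1543 to 1956 and 1560 to 3708) and of muscle markers (2127 to 2508 and 2055 to 2606) overlapped. The part of a shift in cell state or cell type in the differences of imprinted genes was not tested, and in bulk RNA fewer cells of a type and less RNA per cell cannot be told apart.

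Averaged over both times, 16 of the 31 imprinted genes (51.6%) differed between the genotypes, and 50.4% of all 19938 genes did. A gene is called where limma's moderated test, adjusted by Benjamini-Hochberg over all genes, gave an adjusted p under 0.05, and each log2 difference below is knockout minus wild type of log2(intensity + 16), with its standard error (SE). In knockout 11 imprinted genes were lower (Asb4, Ndn, Peg10, Impact, Sgce, Igf2r, Airn, Igf2, Plagl1, Grb10 and Blcap) and 5 were higher (Peg3, Ppp1r9a, Mest, Usp29 and Ascl2). Among all genes 27.2% were lower and 23.1% higher. At 18 h 13 of the 31 were called, 4 higher and 9 lower, beside 45.5% of all genes called, 20.1% higher and 25.4% lower. At 30 h 14 were called, 3 higher and 11 lower, beside 39.2% of all genes, 18.2% higher and 21% lower. Peg3, Ppp1r9a and Mest were higher at both times, 9 genes were lower at both, 16 were called at neither and no gene was called in opposite directions. The share of all genes with each of these pairs of calls was not counted, so these counts only describe the set.

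The sizes spread widely around a centre near 0. The median log2 difference, averaged over both times, was 0.00 over the 31 genes and 0.01 over all genes, and the median absolute difference was 0.20 and 0.18. A difference of at least 2-fold with a call was seen for 5 of the 31 averaged over both times (Asb4, Ndn, Peg10, Peg3 and Impact), beside 9.22% of all genes, for 6 at 18 h, where Airn joined them, beside 11.2%, and for 5 at 30 h, beside 8.64%. The 6 wild-type and the 6 knockout arrays did not overlap for 11 of the 31, beside 30.6% of all genes, and the 3 against 3 arrays of a time for 19 at 18 h, beside 52%, and 17 at 30 h, beside 48.8%. The median replicate SD was 0.13 on the log2 scale both for the imprinted genes and for all genes.

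**Figure D1:**
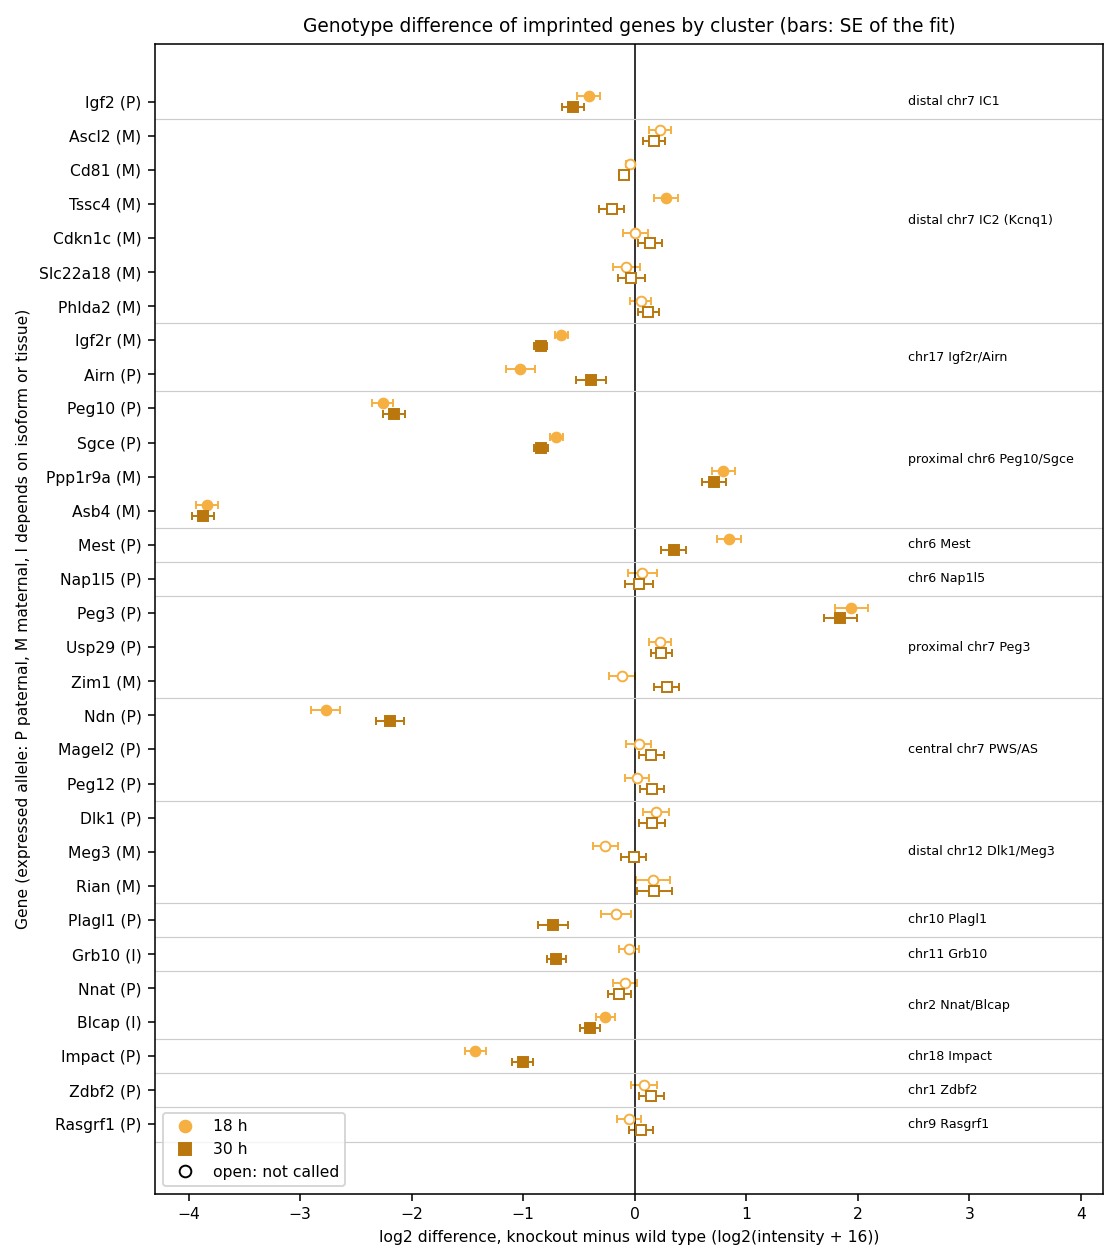
Log2 difference between knockout and wild type (x axis, log2(intensity + 16)) for the 31 imprinted genes, grouped by cluster, at 18 h (circles) and 30 h (squares), with bars for the SE of the fit and open symbols for genes not called. Asb4, Ndn and Peg10 lie farthest to the left at both times, between -3.87 and -2.16, and Peg3 farthest to the right at 1.94 and 1.84.

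The differences of at least 2-fold averaged over both times lay at 4 loci. Among clusters with more than 2 measured genes, only the proximal chromosome 6 cluster around Peg10 and Sgce had every measured gene called. There 3 were lower and 1 was higher, beside 50.4% of all genes called. Asb4 encodes an adaptor of a ubiquitin ligase and is expressed from the maternal copy. It read 593, 542 and 561 in wild type at 18 h and 775, 758 and 728 at 30 h, and 21.9, 23.7 and 28.8 in knockout at 18 h and 32.5, 34.6 and 43.2 at 30 h. Every knockout array lay far below every wild-type array. The log2 difference was -3.84 (SE 0.10, adjusted p = 1.17e-15) at 18 h and -3.87 (SE 0.10, adjusted p = 1.13e-15) at 30 h. Its size depends on the offset because the knockout values were dim: averaged over both times it was -3.85, and -4.40 with an offset of 1 and -2.92 with an offset of 64 in place of 16.

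Peg10, a gene derived from a retrotransposon and needed in the placenta, is read from the paternal copy. At 18 h it read 8953, 9404 and 9258 in wild type and 2142, 1940 and 1672 in knockout, and at 30 h 11329, 12286 and 9391 in wild type and 2193, 2520 and 2620 in knockout. The groups did not overlap, and the wild-type mean was 4.63 times the knockout mean (log2 difference, averaged over both times, -2.21, SE 0.07, adjusted p = 4.47e-15). Sgce encodes epsilon-sarcoglycan, a membrane protein, and starts next to Peg10 in the opposite direction, also on the paternal copy. It read 4480 to 4816 over the 6 wild-type arrays and 2518 to 2948 over the 6 knockout arrays, a smaller difference of -0.77 (SE 0.04, adjusted p = 3.3e-11).

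Ppp1r9a, which encodes the actin-binding protein neurabin and is maternally expressed in some tissues, moved the other way. It read 228, 240 and 204 in wild type at 18 h and 220, 223 and 194 at 30 h, against 449, 366 and 391 in knockout at 18 h and 330, 346 and 398 at 30 h. All knockout arrays lay above all wild-type arrays, by 0.75 on the log2 scale (SE 0.07, adjusted p = 7.34e-08). Between Ppp1r9a and Asb4 lie Pon3 and Pon2, paraoxonase genes with reported imprinting that were on a separate list of other imprinted genes. Pon3 read 317 to 484 in wild type and 202 to 242 in knockout (-0.72, adjusted p = 5.85e-08), and Pon2 1141 to 1295 and 986 to 1252 (-0.16, adjusted p = 0.0185), while Calcr and Tfpi2 of the same region did not pass (-0.10 and 0.15, adjusted p = 0.279 and 0.132).

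The nearest called genes outside this cluster were Casd1 and Pdk4. Casd1, a sialic acid acetyltransferase next to Sgce, read 944, 1037 and 965 in wild type at 18 h and 1008, 1114 and 1008 at 30 h. In knockout it read 692, 359 and 341 at 18 h and 1238, 1262 and 1352 at 30 h. It was lower in knockout at 18 h (-1.13, adjusted p = 2.42e-05), did not pass at 30 h (0.30, adjusted p = 0.206), and the difference of these differences was 1.42 (SE 0.24, adjusted p = 0.00105). Pdk4, a kinase that restrains pyruvate oxidation and lies beyond Asb4, missed the threshold at 18 h (0.16, adjusted p = 0.175) but fell at 30 h (-0.75, adjusted p = 1.77e-06). Of the 10 neighbours of this cluster, 5 on each side, 7 were called in the averaged comparison, 3 higher and 4 lower, beside 50.4% of all genes.

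**Figure D2:**
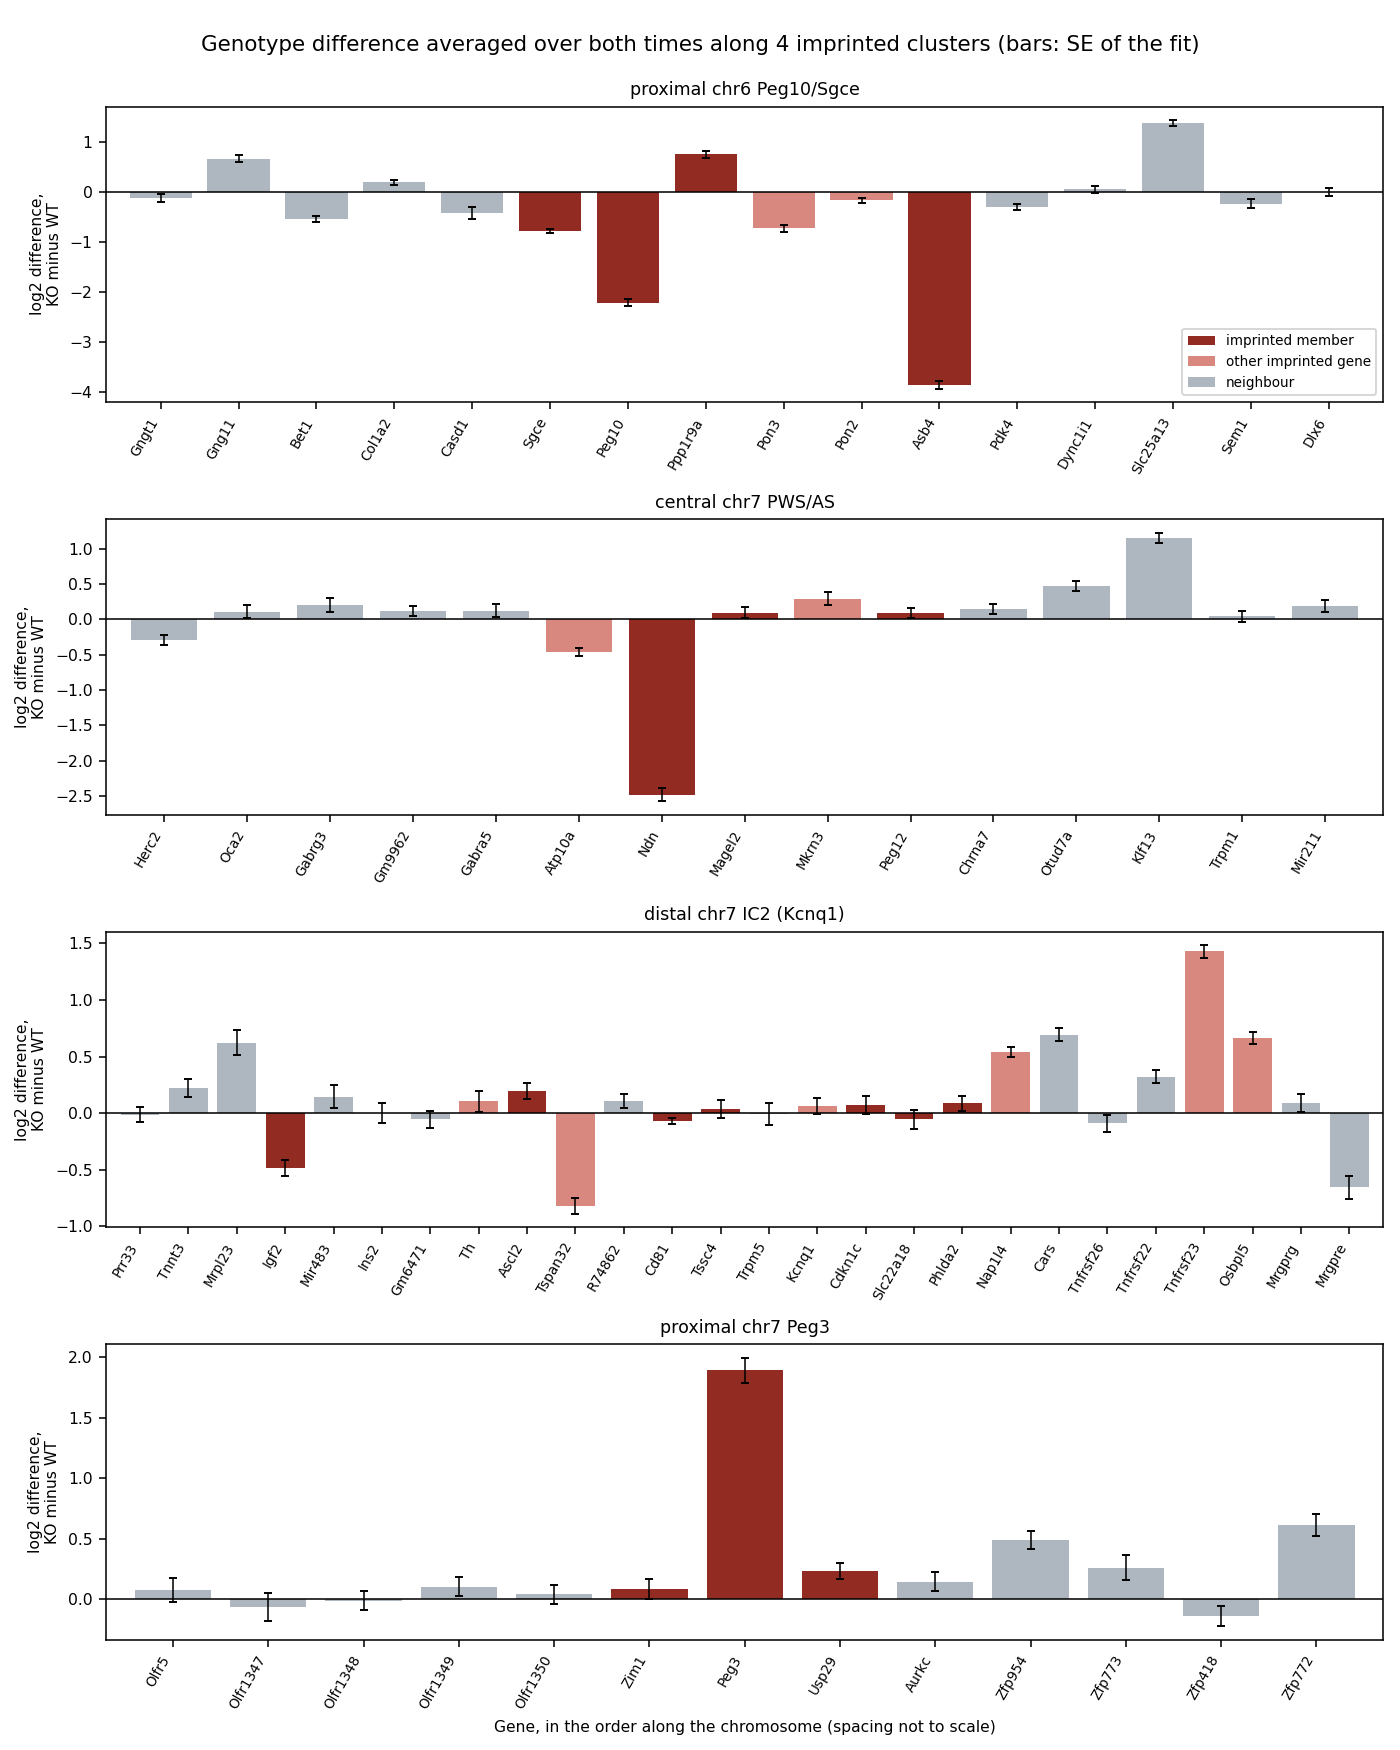
Log2 difference between knockout and wild type averaged over both times (y axis), with bars for the SE of the fit, for measured genes in their order along 4 imprinted clusters (x axis, spacing not to scale), with imprinted genes of the set in dark red, other imprinted genes in light red and neighbours in grey. In the top panel Asb4 (-3.85) and Peg10 (-2.21) are the deepest bars, and in the central chromosome 7 panel Ndn (-2.48) falls beside Magel2 and Peg12, both at 0.09.

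The central chromosome 7 cluster, which corresponds to the human Prader-Willi and Angelman region, had 3 measured genes of the set, all paternally expressed. Ndn encodes necdin, a MAGE-family protein that restrains proliferation in neurons and other cells. It read 1722, 1457 and 1475 in wild type at 18 h and 1619, 1472 and 1651 at 30 h, against 215, 221 and 204 in knockout at 18 h and 429, 327 and 262 at 30 h. The highest knockout array stayed far below the lowest wild-type array. The mean intensities differed 5.67-fold, and the log2 difference was -2.77 (SE 0.13, adjusted p = 2.96e-12) at 18 h and -2.19 (SE 0.13, adjusted p = 9.67e-11) at 30 h.

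The other genes of that cluster were not called or moved less. Magel2, another MAGE gene a short distance from Ndn, read 431 to 577 in wild type and 485 to 591 in knockout, with overlapping groups and a log2 difference of 0.09 (SE 0.08, adjusted p = 0.356). Peg12, a Frat-family gene that binds a kinase of the Wnt pathway, read 389 to 501 and 421 to 569 (0.09, SE 0.08, adjusted p = 0.374). Whether the difference of Ndn departs from those of Magel2 and Peg12 was not itself tested. From the list of other imprinted genes, Mkrn3, an E3 ubiquitin ligase, read 103 to 157 and 105 to 206 (0.29, adjusted p = 0.0135) and Atp10a, a lipid flippase, 1687 to 2042 and 1143 to 1481 (-0.47, adjusted p = 1.26e-06). Of the 10 neighbours, 3 were called, beside 50.4% of all genes.

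In the proximal chromosome 7 cluster Peg3, a paternally expressed gene for a large zinc finger protein, had the largest rise among the 31 genes. It read 321, 296 and 194 in wild type at 18 h and 299, 337 and 309 at 30 h, and 1245, 1058 and 908 in knockout at 18 h and 1069, 1179 and 1264 at 30 h. The groups did not overlap, the mean intensities differed 3.83-fold, and the log2 difference was 1.89 (SE 0.10, adjusted p = 1.86e-11) averaged over both times. Usp29, a paternally expressed ubiquitin protease gene whose start faces that of Peg3, read 181 to 197 in wild type and 194 to 248 in knockout, with slight overlap. Its difference of 0.23 (SE 0.07, adjusted p = 0.00792) passed in the average, with adjusted p = 0.0659 at 18 h and 0.0603 at 30 h. It was called at 18 h under quantile scaling (0.28, adjusted p = 0.0148), equal array medians (0.29, adjusted p = 0.0166) and cyclic loess (0.26, adjusted p = 0.0174), and at both times with array weights, without the intensity trend or without knockout 18 h replicate 3. Zim1, a maternally expressed zinc finger gene beside Peg3, read 76.9 to 103 and 76.8 to 119 and did not pass (0.09, SE 0.08, adjusted p = 0.423). Its difference was -0.11 (adjusted p = 0.475) at 18 h and 0.29 (adjusted p = 0.0574) at 30 h. The 30 h difference was called without wild-type 30 h replicate 1 or knockout 30 h replicate 2, with array weights, or without the intensity trend. The labelled material was single-stranded DNA in the sense orientation per the labels' protocols, but whether each probe set of an overlapping pair reads a single gene was not tested.

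Igf2, Igf2r, Airn and Grb10 are described together for what is known of their ties to IGF2 and insulin signalling, not as a list of their own. Each was called lower in the average, as were 27.2% of all genes. Igf2, the paternally expressed fetal growth factor, read 300, 289 and 255 in wild type at 18 h and 284, 293 and 271 at 30 h, against 214, 188 and 219 in knockout at 18 h and 184, 171 and 209 at 30 h. The groups did not overlap, and the log2 difference was -0.48 (SE 0.07, adjusted p = 1.1e-05). Igf2r encodes the receptor that carries IGF2 to the lysosome for breakdown and is maternally expressed. It read 7247, 7647 and 7153 in wild type at 18 h and 7069, 7336 and 6901 at 30 h, and 4886, 4614 and 4450 in knockout at 18 h and 3709, 4022 and 4122 at 30 h. All knockout arrays were below all wild-type arrays (-0.75, SE 0.04, adjusted p = 1.99e-11).

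Airn is the paternally expressed long RNA that starts inside Igf2r, runs antisense to it and silences the paternal copy. It read 2326, 3130 and 2312 in wild type at 18 h and 1879, 2441 and 1974 at 30 h, and 1366, 1318 and 1087 in knockout at 18 h and 1353, 1701 and 1730 at 30 h. The knockout arrays were all lower, by 1.03 on the log2 scale at 18 h (-1.03, SE 0.13, adjusted p = 2.89e-06). At 30 h the difference was -0.39 (adjusted p = 0.0234) and it was not called under quantile scaling (-0.33, adjusted p = 0.0624), without wild-type 30 h replicate 2 (-0.28, adjusted p = 0.144) or without knockout 30 h replicate 1 (-0.28, adjusted p = 0.123). Airn and Igf2r overlap on opposite strands, and whether each probe set reads its own RNA alone was not tested. Slc22a2, a cation transporter gene beside Igf2r on the list of other imprinted genes, read 192 to 223 in wild type and 168 to 211 in knockout (-0.16, adjusted p = 0.0726). Of the 10 neighbours 5 were called, 3 higher and 2 lower, beside 50.4% of all genes.

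Grb10, an adaptor that binds the insulin and IGF1 receptors and restrains growth, is read from the maternal copy in most tissues and from the paternal copy in brain. It read 1593, 1581 and 1644 in wild type and 1694, 1532 and 1437 in knockout at 18 h, where the groups overlapped (-0.05, SE 0.09, adjusted p = 0.704). At 30 h it read 1650, 1673 and 1781 in wild type and 921, 1136 and 1067 in knockout, with every knockout array lower (-0.70, SE 0.09, adjusted p = 2.5e-06). Ddc, a gene of dopamine and serotonin synthesis beside Grb10 on the list of other imprinted genes, did not pass (-0.05, adjusted p = 0.687). Of the 10 partners listed for the IGF2 axis 9 were measured, and 7 were higher, 1 lower and 1 (Insr, the insulin receptor) not called, with a median log2 difference of 0.53. Over all genes 50.4% were called, 23.1% higher and 27.2% lower, with a median of 0.01. Igf1, the related growth factor, read 124 to 180 in wild type and 436 to 721 in knockout (1.85, adjusted p = 1.2e-11), and Igf1r, the receptor through which both factors signal, 1385 to 1672 and 2786 to 4022 (1.17, adjusted p = 3.91e-12). Irs2, a substrate of that receptor, was higher by 0.94 (adjusted p = 8.73e-10), while Igf2bp3, an RNA-binding protein named for its binding of Igf2 mRNA, read 1679 to 2481 and 60.6 to 89.2 (-4.46, adjusted p = 1.3e-18).

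**Figure D3:**
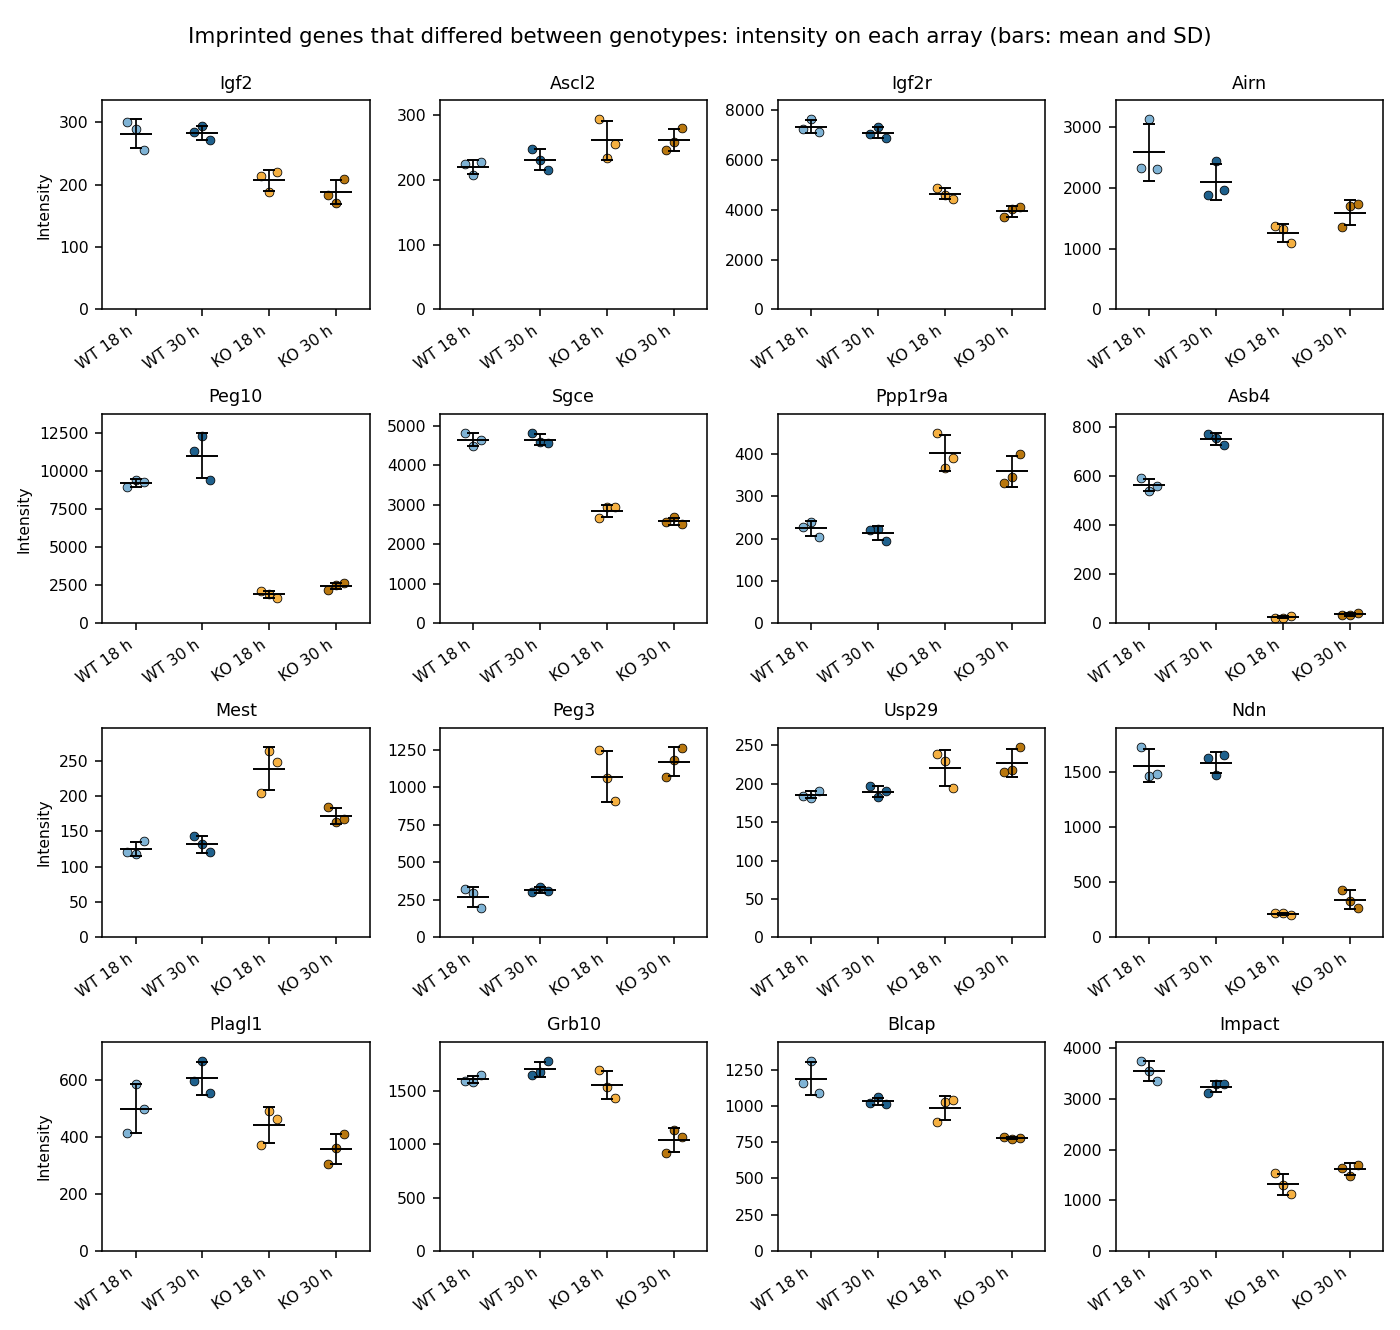
Intensity on each array (y axis, linear) of the 16 imprinted genes called in the average of both times, by genotype and time (x axis), with a horizontal line for the group mean and bars for the SD of 3 arrays. Asb4 drops from 542 to 775 in wild type to 21.9 to 43.2 in knockout, Ndn from 1457 to 1722 to 204 to 429, and Peg3 rises from 194 to 337 to 908 to 1264.

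Among genes that stand alone or in pairs, Impact changed most. Impact, paternally expressed in mouse, encodes an inhibitor of the translation-controlling kinase GCN2. It read 3750, 3554 and 3354 in wild type at 18 h and 3110, 3300 and 3299 at 30 h, and 1533, 1300 and 1122 in knockout at 18 h and 1645, 1477 and 1705 at 30 h. The groups did not overlap and the mean intensities differed 2.32-fold (log2 difference -1.22, SE 0.07, adjusted p = 2.13e-11, averaged over both times).

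Mest, a paternally expressed gene for a protein with a hydrolase fold, read 121, 118 and 136 in wild type at 18 h and 144, 132 and 120 at 30 h, against 205, 264 and 248 in knockout at 18 h and 185, 164 and 167 at 30 h. All knockout arrays were higher, by 0.85 (SE 0.11, adjusted p = 2.76e-06) at 18 h and 0.35 (SE 0.11, adjusted p = 0.0149) at 30 h. The 30 h call was lost without wild-type 30 h replicate 3 (0.29, adjusted p = 0.0766) or knockout 30 h replicate 1 (0.30, adjusted p = 0.0618). Of the genes near Mest on the list of other imprinted genes, Copg2 and Klf14 did not pass in the average (-0.07 and 0.08, adjusted p = 0.264 and 0.435).

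Plagl1, a paternally expressed zinc finger transcription factor gene, read 414, 583 and 499 in wild type and 370, 489 and 462 in knockout at 18 h, overlapping and not called (-0.17, SE 0.13, adjusted p = 0.356). At 30 h it read 594, 666 and 554 against 305, 359 and 411, without overlap (-0.73, SE 0.13, adjusted p = 0.000206). Blcap, a gene for a small membrane protein whose expressed copy depends on the isoform, read 1158, 1310 and 1088 in wild type at 18 h and 1018, 1061 and 1014 at 30 h. In knockout it read 890, 1025 and 1041 at 18 h and 786, 771 and 776 at 30 h.

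Averaged over both times, Blcap differed by -0.33 (SE 0.06, adjusted p = 0.000164) on the log2 scale. Its call at 18 h (-0.26, adjusted p = 0.0194) was lost under quantile scaling (-0.18), equal array medians (-0.20) and cyclic loess (-0.19), in a fit of only the groups compared, and without wild-type 18 h replicate 2 (-0.19, adjusted p = 0.12) or knockout 18 h replicate 1 (-0.19, adjusted p = 0.0759). Nnat, a paternally expressed gene that lies inside Blcap and encodes a small membrane protein of the brain, read 200 to 250 in wild type and 174 to 233 in knockout, with overlap (-0.11, SE 0.08, adjusted p = 0.241).

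The distal chromosome 7 cluster controlled by the Kcnq1ot1 promoter had 6 measured genes of the set, all maternally expressed. In the average 1 of the 6 was called, beside 50.4% of all genes. That gene, Ascl2, a transcription factor needed in the placenta, read 224, 207 and 228 in wild type at 18 h and 247, 230 and 215 at 30 h, and 293, 234 and 255 in knockout at 18 h and 246, 258 and 280 at 30 h. Its difference was small (0.20, SE 0.07, adjusted p = 0.0242), and the call was lost without wild-type 18 h replicate 2 (0.18, adjusted p = 0.0617), wild-type 30 h replicate 3 (0.18, adjusted p = 0.0655) or knockout 18 h replicate 1 (0.16, adjusted p = 0.0676). Under quantile scaling, equal array medians and cyclic loess Ascl2 was also called at 18 h.

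The growth restrainers of this cluster were not called. Cdkn1c, an inhibitor of cyclin-dependent kinases, read 240 to 314 in wild type and 257 to 330 in knockout (0.07, SE 0.08, adjusted p = 0.494), and Phlda2, which limits placental growth, 449 to 557 and 494 to 575 (0.09, SE 0.07, adjusted p = 0.307). Slc22a18, a transporter gene, read 292 to 360 and 260 to 375 (-0.05, SE 0.09, adjusted p = 0.644). Cd81, a tetraspanin gene at the edge of the cluster, read 11497 to 12159 and 10615 to 11788, and its difference of -0.07 (SE 0.03, adjusted p = 0.0608) passed under quantile scaling (-0.08, adjusted p = 0.0219) and cyclic loess (-0.14, adjusted p = 0.000333).

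Tssc4, an RNA splicing factor gene in the same cluster, was called higher at 18 h only. It read 373, 372 and 460 in wild type and 499, 481 and 486 in knockout at 18 h (0.28, SE 0.11, adjusted p = 0.0462), and 497, 545 and 604 against 533, 480 and 410 at 30 h, where the groups overlapped (-0.21, adjusted p = 0.158). The 18 h call was lost in each of 7 fits that left out a single array, among them that without knockout 18 h replicate 1 (0.26, adjusted p = 0.0897) and that without wild-type 18 h replicate 1 (0.23, adjusted p = 0.162).

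Other genes of distal chromosome 7, from the list of other imprinted genes, were higher, lower or not called. Tnfrsf23, a decoy receptor, read 1148 to 1412 in wild type and 3340 to 3739 in knockout (1.43, SE 0.05, adjusted p = 8.69e-14). Osbpl5, a lipid transfer protein gene, was higher by 0.66 (adjusted p = 4.54e-09), Nap1l4, a histone chaperone gene, by 0.55 (adjusted p = 4.89e-09), and Dhcr7, of cholesterol synthesis, by 0.21 (adjusted p = 0.00901). Tspan32, a tetraspanin gene beside Ascl2, read 164 to 216 and 96.2 to 108 (-0.82, adjusted p = 7.36e-09), while Kcnq1, the potassium channel gene that hosts Kcnq1ot1, did not pass (0.06, adjusted p = 0.517). Between Igf2 and Ascl2 lie Ins2, an insulin gene (0.0004, adjusted p = 0.997), and Th, the tyrosine hydroxylase gene (0.11, adjusted p = 0.381), and neither passed. The nearest called neighbours were Mrpl23 (0.62, adjusted p = 7.38e-05), a mitochondrial ribosome gene, and Cars (0.69, adjusted p = 3.8e-09), a tRNA synthetase gene. Of 10 neighbours of this cluster 5 were called, beside 50.4% of all genes.

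In the distal chromosome 12 cluster the count of called genes by limma was 0 of 3 measured, at either time and in the average, and 1 gene (Meg3, at 18 h) had an unadjusted p under 0.05. Of all genes 45.5% were called at 18 h, 39.2% at 30 h and 50.4% in the average. Dlk1, a paternally expressed membrane protein that holds back fat cell formation, read 304 to 376 in wild type and 325 to 439 in knockout (0.17, SE 0.08, adjusted p = 0.098), and it passed under quantile scaling (0.21, adjusted p = 0.0459). Meg3, a maternally expressed long RNA, read 257, 274 and 236 in wild type and 214, 209 and 208 in knockout at 18 h, without overlap, yet missed the threshold (-0.26, SE 0.11, adjusted p = 0.0619). It was called at 18 h under cyclic loess (-0.23, adjusted p = 0.0333), with array weights (-0.28, adjusted p = 0.0227), in the fit of only those groups (-0.26, adjusted p = 0.0283) and without wild-type 18 h replicate 3, knockout 30 h replicate 2 or knockout 30 h replicate 3. At 30 h its values were 230, 217 and 200 against 206, 183 and 257 and overlapped (-0.01, adjusted p = 0.961). Averaged over both times Meg3 did not pass (-0.14, adjusted p = 0.166). It was called there with array weights (-0.21, adjusted p = 0.00615) and without knockout 30 h replicate 3 (-0.20, adjusted p = 0.0165). Rian, a maternally expressed host of small nucleolar RNAs, read 50.8 to 78.2 and 59.9 to 99.5 (0.17, SE 0.11, adjusted p = 0.219). Rtl1, a retrotransposon-derived gene, and Dio3, a deiodinase gene, both of this region and on the list of other imprinted genes, did not pass (0.05 and 0.03, adjusted p = 0.642 and 0.864).

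The remaining 3 genes were paternally expressed, dim and not called. Nap1l5, a retrotransposed gene inside Herc3 related to nucleosome assembly proteins, read 98.4 to 149 in wild type and 110 to 138 in knockout (0.05, SE 0.09, adjusted p = 0.665). Zdbf2, a zinc finger gene, read 51.9 to 73.7 and 59.1 to 80.4 (0.12, SE 0.08, adjusted p = 0.266). Rasgrf1, an activator of Ras in neurons, read 91.9 to 114 and 89.4 to 110 (0.00, SE 0.08, adjusted p = 0.991). At so low a signal an array can miss a difference, so these values do not show that expression was equal.

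Grouped by the expressed parental copy, calls went both ways on each side. The copy is the one given for the mouse in general, for Ppp1r9a only in some tissues. Whether it is the copy read in these fibroblasts was not measured. Of 17 measured paternally expressed genes 10 were called in the average, 3 higher and 7 lower, with a median log2 difference of 0.00 and a median absolute difference of 0.45. Of 12 measured maternally expressed genes 4 were called, 2 higher and 2 lower, with a median of 0.05 and a median absolute difference of 0.11. Over all genes 50.4% were called, with a median of 0.01 and a median absolute difference of 0.18. Grb10 and Blcap, whose expressed copy depends on tissue or isoform, were both lower. Of the 5 differences of at least 2-fold, those of Ndn, Peg10, Peg3 and Impact were in paternally expressed genes and that of Asb4 in a maternally expressed gene. Whether the paternal and maternal groups differ was not tested.

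The comparison of 30 h with 18 h asks which genes differ between the 2 times in each genotype. With only these times after a single serum shock, circadian phase cannot be told apart from the hours since the serum. In wild type 2 of the 31 differed between 30 h and 18 h (Tssc4, 0.44, adjusted p = 0.0456, and Asb4, 0.41, adjusted p = 0.0447, both higher at 30 h), beside 2.35% of all genes, 1.4% higher and 0.948% lower. Both calls lay near the threshold and were lost without any single wild-type array, except that Tssc4 kept its call without wild-type 18 h replicate 3. In knockout 9 of the 31 differed, 5 higher and 4 lower at 30 h, beside 27.3% of all genes, 14.4% higher and 12.9% lower, and 6 to 12 differed when a single array was left out. Ndn (0.61), Asb4 (0.37), Peg10 (0.35), Zim1 (0.35) and Impact (0.29) were higher at 30 h, and Grb10 (-0.57), Mest (-0.43), Blcap (-0.33) and Igf2r (-0.23) were lower. The calls of Ndn (adjusted p = 0.00162), Grb10 (adjusted p = 8.58e-05), Mest (adjusted p = 0.00518), Blcap (adjusted p = 0.00777) and Igf2r (adjusted p = 0.00533) held in every alternative fit. Those of Impact, Peg10 and Zim1 were lost when some knockout arrays were left out, with Impact at 0.18 (adjusted p = 0.178) and Peg10 at 0.26 (adjusted p = 0.0688) without knockout 18 h replicate 3, and Zim1 at 0.30 (adjusted p = 0.127) without knockout 18 h replicate 2. The Impact call was also lost under quantile scaling (adjusted p = 0.0542), equal array medians (adjusted p = 0.0643), cyclic loess (adjusted p = 0.114) and without the intensity trend (adjusted p = 0.053). The Peg10 call was lost under cyclic loess (adjusted p = 0.0612). A fit of only the knockout groups ended the calls of Impact (adjusted p = 0.0806) and Zim1 (adjusted p = 0.0613). That of Asb4 (21.9 to 43.2 in knockout) was lost with an offset of 64 (0.18, adjusted p = 0.0858) and in a fit of only the knockout groups (adjusted p = 0.0945).

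The knockout 18 h array that stands apart bears on these time effects. Without knockout 18 h replicate 1, Airn (0.40, adjusted p = 0.042), Sgce (-0.19, adjusted p = 0.0292) and Plagl1 (-0.40, adjusted p = 0.0329) were also called for time in knockout, where with it they were 0.34 (adjusted p = 0.0672), -0.14 (adjusted p = 0.113) and -0.29 (adjusted p = 0.139). The difference of the time effects was called for 6 of the 31 genes, beside 13.4% of all genes, 6.62% with a higher and 6.8% with a lower time effect in knockout. These were Tssc4, Mest and Grb10 with a lower time effect in knockout and Airn, Ndn and Impact with a higher one. Leaving out a single array gave 1 to 6 such calls, with 1 without knockout 18 h replicate 3 and 2 without any of the wild-type arrays other than 18 h replicate 3, knockout 18 h replicate 2 or knockout 30 h replicate 2. Of the 6 genes Grb10 alone (-0.65, SE 0.12, adjusted p = 0.00197) was called in every alternative fit. Ndn and Impact were called under none of the 3 other scalings. Plagl1, at -0.57 (adjusted p = 0.0591), was called without that array (-0.68, adjusted p = 0.0128) and under all 3 other scalings. Without it Tssc4 was no longer called (-0.47, adjusted p = 0.0505).

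**Figure D4:**
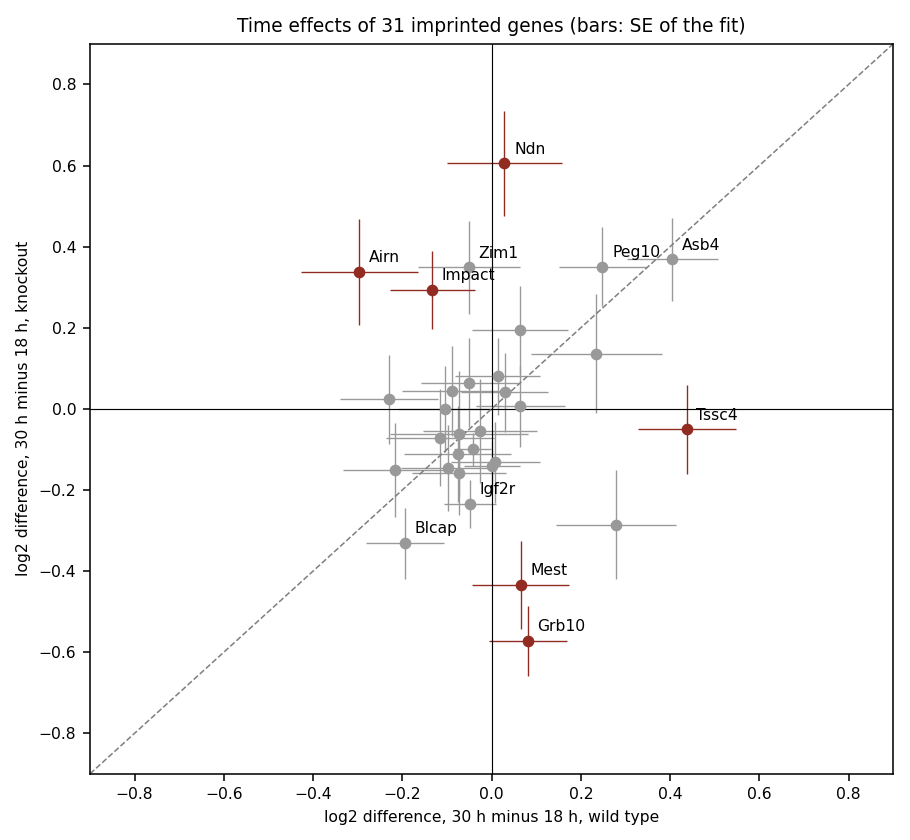
Log2 difference between 30 h and 18 h in wild type (x axis) and in knockout (y axis) for the 31 imprinted genes, with bars for the SE of the fit, a dashed line where both are equal, and dark red for the 6 genes whose time effects differed between genotypes. Grb10 lies lowest, at 0.08 in wild type and -0.57 in knockout, and Ndn highest, at 0.03 and 0.61.

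The surroundings of the clusters were called about as often as genes in general. Of 154 neighbours, 78 (50.6%) were called in the average, 34 higher and 44 lower, with a median log2 difference of 0.02. These are the 5 measured genes on each side of each of 16 clusters, leaving out the set and the list of other imprinted genes. Further imprinted transcripts may be among the neighbours, which include microRNA genes of the distal chromosome 12 cluster such as Mir154. Around Nnat and Blcap the nearest called neighbours were Src (0.22, adjusted p = 0.00344), a tyrosine kinase gene, on the near side and Ctnnbl1 (-0.36, adjusted p = 3.39e-05), a splicing factor gene, on the far side. Of 37 other imprinted genes 33 were measured, and 12 were higher and 7 lower, with a median of 0.06, beside 50.4% of all genes called, 23.1% higher and 27.2% lower. The 4 called genes with the largest differences on that list were Dcn, a collagen-binding proteoglycan imprinted in placenta that is also on the list of fibroblast markers (236 to 524 in wild type and 5415 to 6045 in knockout, 4.04, adjusted p = 2.56e-17), Tnfrsf23, Qpct, which cyclises glutamine at protein ends (1.31, adjusted p = 5.16e-11), and Sfmbt2, a Polycomb-group gene (1.15, adjusted p = 9.81e-10).

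Genes that set or protect imprints were called in both directions. Of 21 listed and measured, 7 were higher and 8 lower in the average, with a median of 0.01, beside 23.1% of all genes higher and 27.2% lower (50.4% called). Zfp57, which guards imprinting control regions after fertilisation, read 1623 to 2156 in wild type and 2690 to 3237 in knockout (0.72, SE 0.06, adjusted p = 3.71e-09). Dnmt1, the enzyme that copies DNA methylation at replication, read 2576 to 3171 and 4013 to 4317 (0.51, SE 0.04, adjusted p = 3.65e-09). Tet1, which starts the removal of DNA methylation, read 362 to 515 and 171 to 327 (-0.80, SE 0.09, adjusted p = 6.73e-07), and Setdb1, a histone methyltransferase recruited with ZFP57, 1655 to 2042 and 950 to 1406 (-0.57, SE 0.06, adjusted p = 2.07e-07). These 4 are named because their differences were the largest on the list. For all 4 the wild-type and knockout arrays did not overlap, as was so for 30.6% of all genes. DNA methylation itself was not measured.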

How the data were processed

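Total RNA, about 100 ng per sample per the labels' protocols, was measured on 12 Affymetrix arrays, 3 in each of 4 groups taken from the sample labels. The authors deposited linear intensity values, 1 per probe set and array. The submitters' processing notes name Affymetrix Expression Console 1.1 and the PLIER 2.0 algorithm. How arrays were normalized against each other was not given in the sources used here. Of 35557 probe sets, 21789 had 1 gene symbol in the platform annotation, 1621 had several and 12147 had none listed, and 21698 of those with 1 symbol were matched to RefSeq genes of GRCm38.p6 for current names and gene order.

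Intensities were taken as log2(intensity + 16) of the deposited values, which understates the change of dim genes, and the probe set with the highest mean stood for a gene, with dim genes kept (19938 genes). In R 4.3.3, limma 3.58.1 fitted the 4 group means to the 12 arrays, and its empirical Bayes step used a trend on intensity (8 residual and 9.14 prior degrees of freedom). Two-sided p-values were adjusted by Benjamini-Hochberg over all genes of a comparison, and the call threshold was 0.05. The fit was tested on simulated data with independent noise and few changed genes, unlike the genotype comparisons here. That run checks the code and not the calls on these arrays. The number of arrays limits the precision.

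The text names every member of the set, up to 4 called genes of each other list by the size of the averaged difference, listed genes of a cluster that holds a member, the gene next to a cluster of 2 or more members on each side where that gene was called, Kmt2a, and defining markers of cell types that moved with genotype. The members and lists were chosen with earlier results of these data known. Alternatives were offsets of 1 and 64, a filter at the 30th percentile, 3 scalings between arrays, array weights, robust eBayes, a fit without the intensity trend, a fit of only the groups compared, a gene's mean over probe sets, an added 2-fold threshold, a block for the replicate number, and fits without each single array. Array weights were estimated gene by gene because the planned estimate did not converge, and the alternatives for the lists of other genes were added after seeing the data.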

Additional observations from a re-analysis of the deposited data

Results flagged for a closer look

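For 6 imprinted genes the effect of time, 30 h minus 18 h, differed between the genotypes by limma's test of the difference itself, given here as the log2 time effect in knockout minus that in wild type, with 13.4% of all genes called in this comparison. Grb10, the growth-restraining adaptor, had the largest difference, -0.6537 (adjusted p = 0.00197), with 3 of 3 knockout arrays lower at 30 h than every knockout array at 18 h. Airn, the antisense RNA of Igf2r, differed by 0.634 (adjusted p = 0.0304) and Ndn, the necdin gene, by 0.5763 (adjusted p = 0.0447). Mest differed by -0.4997 (adjusted p = 0.0379) and Tssc4 by -0.4878 (adjusted p = 0.0461). Impact differed by 0.4259 (adjusted p = 0.0443). The calls of Airn, Ndn, Mest, Tssc4 and Impact lie near the threshold, and each was lost when any of several single arrays was left out. Ndn and Impact were also not called under quantile scaling (adjusted p = 0.0942 and 0.06), equal array medians (adjusted p = 0.172 and 0.174) or cyclic loess (adjusted p = 0.0959 and 0.0942). Equal array medians also ended the calls of Airn (adjusted p = 0.051) and Tssc4 (adjusted p = 0.0502), and cyclic loess that of Airn (adjusted p = 0.0542). Leaving out each of the 12 arrays in turn gave between 1 and 6 calls among the 31 genes.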

How the results depend on the processing

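With a 2-fold change asked in addition, 6 genes were called at 18 h, 5 at 30 h, 5 in the average, and 0 for time in wild type, time in knockout and the difference of time effects. The main count for time in wild type, 2, became 1 with an offset of 1, the filter at the 30th percentile, equal array medians, cyclic loess or no intensity trend, and 4 with array weights. Time in knockout rose from 9 to 14 with array weights, and the difference of time effects fell from 6 to 2 without the intensity trend. Replicate numbers did not pair the arrays (correlations of same-numbered deviations from -0.393 to 0.339), and the replicate block gave 0 calls for time in wild type and left the other counts within 1.5 times. Without a single array the counts ran from 11 to 15 at 18 h, 13 to 16 at 30 h, 15 to 17 in the average, 0 to 2 and 6 to 12 for time in wild type and knockout, 1 to 6 for the difference of time effects, 7 to 9 for IGF2 axis partners, 13 to 15 for imprint maintenance, 19 to 21 for other imprinted genes and 71 to 79 for neighbours. In the averaged comparison 2 of the 31 genes changed sign, both near 0 and not called: without a single array Tssc4 in the average ran from -0.0066 (without knockout 30 h replicate 1) to 0.0852 and Rasgrf1 from -0.0364 to 0.0376, and Rasgrf1 was -0.0457 with array weights. At single times, differences that were not called also changed sign, among them Grb10 at 18 h (-0.11 to 0.02 over the alternatives) and Meg3 at 30 h (-0.15 to 0.09). No called difference of a gene of the set changed sign. Equal array medians moved the share of higher calls over all genes from 59.6% to 79.4% for time in wild type and from 49.3% to 27.2% for the difference of time effects, and cyclic loess moved the latter to 35.9%. Where no value above shows it, the cause was not tested. Dim genes are limited by signal over background.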

Other observations

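Some direct neighbours of imprinted genes that were not called differed far more than the imprinted genes themselves, and these were chosen after their values were seen. Herc3, a ubiquitin ligase gene whose intron holds Nap1l5, read 180 to 365 in wild type and 1310 to 1542 in knockout (log2 difference averaged over both times 2.44, SE 0.09, adjusted p = 5.2e-14), while Nap1l5 read 98.4 to 149 and 110 to 138. Fam13a, on the other side of Nap1l5, read 682 to 1220 in wild type and 26.9 to 51.1 in knockout (-4.07, SE 0.08, adjusted p = 8.03e-18). Adam23, a cell adhesion gene beside Zdbf2, read 4569 to 5808 and 52.5 to 81.3 (-6.01, SE 0.08, adjusted p = 4.85e-20), with Zdbf2 at 51.9 to 73.7 and 59.1 to 80.4. Ctsh, a lysosomal protease gene near Rasgrf1, read 1517 to 1845 and 343 to 845 (-1.56, SE 0.08, adjusted p = 1.61e-11).

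Klf13 and Slc25a13, also picked after their values were seen, were the highest among the neighbours of the Ndn and Peg10 clusters. Klf13, a zinc finger transcription factor gene, was higher in knockout by 1.15 (adjusted p = 1.45e-10) and Slc25a13, a mitochondrial carrier gene, by 1.38 (adjusted p = 3.59e-13). Of the imprinted genes of the set in these clusters, Ndn, Peg10, Sgce and Asb4 were lower, Ppp1r9a was higher (0.75), and Magel2 and Peg12 were not called.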
